A study of Mus musculus with 9 samples.

Results

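In the nucleus accumbens, a part of the ventral striatum within the reward circuitry, 10 genes chosen by name were followed: Ehmt1, Ehmt2, Setdb1, Suv39h2, Ezh2 and Kmt2a, which encode enzymes that methylate histones, Kdm1a, which encodes an enzyme that removes such methyl groups, and Baz1a, Baz1b and Smarca5, which encode subunits of nucleosome remodelling complexes. They belong to 34328 protein-coding and long noncoding RNA genes on the autosomes and the X chromosome. CpG methylation of their own DNA was compared between 5 libraries labelled Control (numbered 2, 3, 4, 5 and 8) and 4 labelled Susceptible (2, 3, 6 and 7), by whole-genome bisulfite sequencing of tissue punches. Bisulfite converts unmethylated cytosines, so the methylation level is the percentage of calls at CpGs that still read as cytosine, and hydroxymethylated cytosines are counted with the methylated ones. Every sample is labelled as strain C57BL/6J, with no genetic change named. The treatment text given for every sample, Control included, describes male mice aged 8 weeks that met CD1 aggressors in 10 daily social defeats. It does not say how the Control mice were handled, by what measure mice were called Susceptible, or whether each library came from 1 mouse. The p-values below therefore measure at most the spread between these libraries.

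Histone methyltransferases and demethylases set the marks that chromatin readers recognise. Methylated lysine 9 and lysine 27 of histone H3 accompany silenced chromatin, and methylated lysine 4 accompanies active promoters. Remodelling complexes of the ISWI family use ATP to slide and space nucleosomes. In the nucleus accumbens several of these enzymes have been studied in models of drug exposure and stress. Most genes of this kind are active in nearly every cell and start in CpG islands, stretches dense in CpGs that are usually free of DNA methylation.

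The RefSeq promoter table (build GRCm38.p6) held 10 promoter sequences for 9 of the 10 genes, 2 of them for Ehmt2. Baz1a had no entry. Each entry runs from 250 bases before a start to 50 after it. These 300 bases held 15 CpGs at Setdb1 and 27 to 40 in the other 9 sequences, against a median of 7 (interquartile range 3 to 20) over all 32851 promoters in the table. The upstream parts of 4 of these sequences, 250 bases each, are shown, with every CpG in capitals. Methylation was read at CpGs, though not at each of them in every library. Suv39h2 carries a cyclic AMP response element and Ehmt2 carries E-boxes, described next, each found at that gene alone among the 9, Kmt2a had the start whose groups did not overlap, and Setdb1 had the fewest CpGs.
Suv39h2, chr2:3474987-3475236, minus strand: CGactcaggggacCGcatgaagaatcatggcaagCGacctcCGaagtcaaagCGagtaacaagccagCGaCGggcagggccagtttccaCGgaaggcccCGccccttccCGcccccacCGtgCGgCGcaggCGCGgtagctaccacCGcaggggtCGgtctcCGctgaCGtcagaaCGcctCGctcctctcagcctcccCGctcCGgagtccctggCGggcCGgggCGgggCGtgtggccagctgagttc
Ehmt2, chr17:34898224-34898473, plus strand: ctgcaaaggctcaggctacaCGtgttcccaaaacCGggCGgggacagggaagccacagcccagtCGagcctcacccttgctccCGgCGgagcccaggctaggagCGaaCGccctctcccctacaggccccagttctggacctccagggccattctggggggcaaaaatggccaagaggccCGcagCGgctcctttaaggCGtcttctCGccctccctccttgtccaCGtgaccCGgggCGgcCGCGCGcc
Kmt2a, chr9:44881290-44881539, minus strand: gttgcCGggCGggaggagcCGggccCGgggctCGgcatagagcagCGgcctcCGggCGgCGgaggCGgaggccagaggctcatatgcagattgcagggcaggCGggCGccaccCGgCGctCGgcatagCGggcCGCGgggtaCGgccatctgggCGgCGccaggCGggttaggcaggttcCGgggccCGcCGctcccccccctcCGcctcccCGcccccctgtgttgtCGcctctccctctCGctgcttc
Setdb1, chr3:95357203-95357452, minus strand: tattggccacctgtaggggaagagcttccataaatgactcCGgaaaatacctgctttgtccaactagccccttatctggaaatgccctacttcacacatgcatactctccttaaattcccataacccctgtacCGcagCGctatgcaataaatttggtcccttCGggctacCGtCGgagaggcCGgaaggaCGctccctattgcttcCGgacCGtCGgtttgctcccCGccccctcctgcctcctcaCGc

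A set of 7 short motifs was searched on both strands of the 300 bases. The GC box GGGCGG was found at 7 of the 9 genes, with 5 matches at Kmt2a and none at Kdm1a and Ezh2, and in 35.7% of all promoters. The cyclic AMP response element TGACGTCA occurred at Suv39h2 alone, starting 85 bases before the start, and in 1.79% of all promoters. The E-box CACGTG occurred at Ehmt2 alone, 232 and 26 bases before the start used and once in its other promoter sequence, and in 7.15% of all promoters. The ETS motif CCGGAAG matched at Setdb1 alone, once on each strand, 68 and 47 bases before the start, and in 8.86% of all promoters. The CCAAT box CCAAT matched at Setdb1, Kdm1a, Baz1b and Ezh2, with 3 matches at Ezh2, and in 37.4% of all promoters. The YY1 motif AAGATGGC matched at Suv39h2 alone, 38 bases after the start, and in 2.75% of all promoters. The NRF1 core CGCATGCG was in none of the members' sequences and in 1.87% of all promoters. Every match of the GC box, the response element, the E-box and the ETS motif holds a CpG in its own letters. A match describes letters, not a bound site.

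Over the CpGs of these 300 bases, every library with calls there read low, at most 6.18%. The libraries differed in the CpGs they listed. All 9 listed 9 of 33 CpGs at Suv39h2, 9 of 36 at Kmt2a and 7 of 15 at Setdb1. The number shared was 20 of 28 at the first Ehmt2 promoter, and 0 at Ehmt1, Smarca5 and the second Ehmt2 promoter. At Suv39h2 the 9 libraries read at most 1.98% (138 to 1490 calls per library), at Kmt2a at most 3.21% (280 to 850 calls), and at Setdb1 at most 6.18% (173 to 366 calls). At the first Ehmt2 promoter they ranged from 0.360 to 4.27% (556 to 1294 calls). The second Ehmt2 promoter read at most 4.17%, with 0 calls in at least 1 library. With the libraries pooled, 1 CpG exceeded 10% at Kmt2a (10.2%), 1 at Kdm1a (10.2%) and 1 at the first Ehmt2 promoter (11.4%). At Smarca5, where a library had 24 to 814 calls and read at most 4.17%, 2 CpGs did so, the higher at 91.7%. The other sequences held no such CpG.

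The Control libraries listed 13446563 to 19536874 cytosines with 313475624 to 430312082 calls each. The Susceptible ones listed 19705746 to 22631489 cytosines with 432409939 to 570984634 calls. The groups did not overlap in either count, so depth goes with the group in every comparison below and cannot be told apart from it. Every listed cytosine had at least 10 calls, so the CpGs that a library lists depend on its depth. The autosomes read 76.4 ± 0.512% in Control and 75.8 ± 0.966% in Susceptible (mean ± SD over libraries, as throughout, n = 5 and n = 4). Start windows under 10% averaged 3.35 to 3.60% in the Control libraries and 3.44 to 3.65% in the Susceptible ones. These windows are mostly unmethylated, so their level includes any cytosine that escaped conversion, and the 2 ranges overlapped. The strands of a CpG disagreed more in Control 5 and Control 8 than elsewhere: at CpGs of 20 to 80% the variance between strands was 18.4 and 19.7 times its binomial value, against 2.38 to 6.11 in the other 7 libraries. The mean gene body level over lists of marker genes was 60.1 to 65.6% in Control and 63.8 to 68.7% in Susceptible for 10 neuron genes, 76.2 to 81.3% and 74.9 to 79.2% for 8 oligodendrocyte genes, 68.7 to 71.5% and 65.0 to 70.1% for 8 astrocyte genes, and 82.5 to 85.0% and 79.4 to 83.7% for 8 microglia genes. It was 66.0 to 68.3% and 64.9 to 71.1% for 4 endothelial genes, and 47.7 to 58.2% and 46.8 to 55.9% for 4 genes of cortical projection neurons. All of these ranges overlapped and no marker gene passed the threshold. Within the lists, all 8 astrocyte bodies (median difference -1.52 percentage points) and 7 of the 8 microglia bodies (-1.09 points) had a lower mean in Susceptible, and 8 of the 10 neuron bodies had a higher one (median 1.31 points). The oligodendrocyte bodies were lower at 5 and higher at 3, the endothelial ones at 3 and 1, and the cortical ones at 2 and 2. Over all tested gene bodies 46.2% read higher and 53.8% lower. Without Susceptible 7, 4 of the astrocyte bodies were lower and 4 higher (median 0.0313 points), and 5 of the microglia bodies were lower (-0.268 points). Without Susceptible 6, 6 of the 10 neuron bodies were higher (median 1.31 points). The part of cell mixture in these shifts and in the differences given below was not tested.

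Around the starts, 8 of the 10 genes were almost free of methylation in both groups, Setdb1 was low with methylated flanks, and the Baz1a end was methylated. A start window held the CpGs within 1000 bp of the annotated start. Over all 9 libraries the order from lowest to highest was Ezh2 (1.20%), Baz1b (1.34%), Kmt2a (1.43%), Ehmt1 (1.69%), Suv39h2 (1.97%), Ehmt2 (2.08%), Smarca5 (2.81%), Kdm1a (3.76%), Setdb1 (10.6%) and Baz1a (92.5%). Among all 30937 tested starts these levels stood between the 2.60th percentile (Ezh2) and the 21.5th (Kdm1a) for the first 8, at the 38.7th for Setdb1 and at the 92.9th for Baz1a. The median tested start read 36.2%, and the median for protein-coding genes 8.87%. No member passed the threshold of an adjusted p under 0.05 in the quasi-binomial model, nor did any of the tested starts (0%). None of the 10 reached an unadjusted p under 0.05, which 4.77% of all tested starts did. Susceptible read higher at 7 members and lower at 3, with a median difference of 0.142 percentage points, beside -0.0885 over all tested starts, of which 47.4% read higher. Among the 11713 starts under 10%, the kind to which 8 of the members belong, 55.2% read higher, with a median difference of 0.0835 points.

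**Figure D1:**
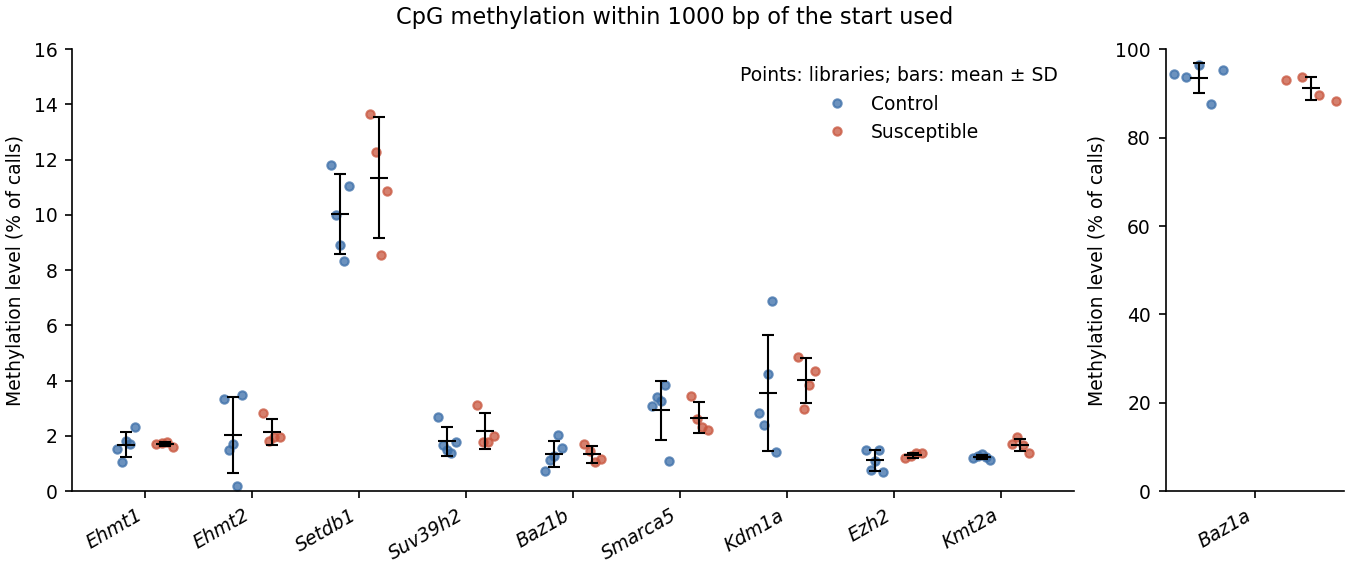
Methylation level within 1000 bp of the start used, in percent of calls, for each of the 5 Control and 4 Susceptible libraries (points), with the mean and SD of each group (bars); Baz1a has its own axis from 0 to 100%. The 9 genes of the left panel lie at or under 13.7% in every library and the groups overlap at 9 of the 10, Kmt2a being the exception.

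Among the H3K9 writers, Ehmt1 and Ehmt2, which encode the partner enzymes GLP and G9a that place the mono- and dimethyl mark, differed little between the groups within 1000 bp of the start. At Ehmt1 (gene 77683, chr2:24790769-24919643, minus strand) the Control libraries read 1.53, 1.04, 1.81, 1.73 and 2.33% and the Susceptible ones 1.70, 1.73, 1.76 and 1.61%. The Susceptible values all lay inside the Control range, and the means were 1.69 ± 0.466% and 1.70 ± 0.0682%. At Ehmt2 (gene 110147, chr17:34898463-34914073, plus strand) the Control libraries read 3.35, 1.51, 1.71, 0.173 and 3.48%, and the Susceptible ones 2.83, 1.80, 1.95 and 1.95%. Control 5 was the low library, with 2 methylated calls of 1155 (Wilson 95% interval 0.0475 to 0.629%), and the difference of the means was 0.092 points. It was 1.24 points with 20 calls required per cytosine. Within 2000 bp of the start the differences were -1.93 points at Ehmt1 (unadjusted p of 0.0786) and -1.22 points at Ehmt2 (0.637).

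Setdb1 (gene 84505, chr3:95323525-95357202, minus strand), which encodes an enzyme that places the trimethyl mark on H3K9 and silences retroelements, had the least CpG-rich window of the 9 low starts, with 56 CpGs against 124 to 186. Its Control libraries 2, 4, 5 and 8 read 11.8, 8.90, 8.35 and 11.1%, with Control 3 between them, and its Susceptible libraries 13.7, 12.3, 8.55 and 10.9%. The groups overlapped, and the difference of 1.32 points (10.02 ± 1.45% and 11.3 ± 2.19%) had an unadjusted p of 0.517. It was 0.547 points without Susceptible 2 and 2.25 points without Susceptible 6. Within 500 bp of the start the difference had the other sign, -0.607 points. Suv39h2 (gene 64707, chr2:3455815-3474986, minus strand), which encodes a further enzyme for that mark, read 2.70, 1.66, 1.495, 1.38 and 1.78% in Control and 3.14, 1.79, 1.79 and 2.01% in Susceptible. Library 2 was the highest of its group in both, and the difference of 0.381 points had an unadjusted p of 0.298. It was 0.0639 points without Susceptible 2 and 0.607 points without Control 2. The window of Suv39h2 also holds the end of Dclre1c, a DNA repair gene on the other strand.

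Ezh2 (gene 14056, chr6:47530274-47595270, minus strand), the H3K27 methyltransferase of Polycomb repressive complex 2, had the lowest start of the set. The Control libraries read 1.51, 0.783, 1.09, 1.496 and 0.687%, and the Susceptible ones 1.19, 1.27, 1.38 and 1.38%, within the Control range. The start of the noncoding gene F830010H11Rik, on the other strand, lies 179 bp from the Ezh2 start and shares the window.

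Kmt2a (gene 214162, chr9:44803355-44881352, minus strand), which encodes the H3K4 methyltransferase MLL1, was the 1 member of 10 (10%) whose start windows did not overlap between groups, against 1.85% of all tested starts. The Control libraries read 1.21, 1.26, 1.34, 1.24 and 1.14%, and the Susceptible ones 1.69, 1.95, 1.68 and 1.40%. The means were 1.24 ± 0.074% and 1.68 ± 0.226% and differed by 0.444 points. The unadjusted p was 0.160 and the adjusted p 0.971, so the threshold was missed. Without moderation of the dispersion the unadjusted p was 0.0145, the 1 alternative in which a member start fell under 0.05 (as did 4.91% of all starts), and with limma on logit methylation it was 0.0605. Without moderation, the Kmt2a dispersion of 0.430 was raised to the minimum of 1, so the p of 0.0145 rests on counting error of the calls alone. Over the CpGs listed in all 9 libraries the difference was -0.116 points, so its sign changed with the CpGs used. The window also holds part of the noncoding gene Gm39326. The low start windows as a whole were 3.46 ± 0.0942% in Control and 3.54 ± 0.0889% in Susceptible.

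Kdm1a (gene 99982, chr4:136550533-136602787, minus strand), encoding the demethylase LSD1 that acts on mono- and dimethylated H3K4, varied most among the Control libraries of the low starts. The 5 read 2.85, 2.38, 4.24, 6.87 and 1.43% and spanned the Susceptible ones, at 4.88, 2.97, 3.84 and 4.35%. The highest and the lowest of the 9 were Control 5 (Wilson 95% interval 5.88 to 8.02%) and Control 8 (1.12 to 1.83%), the libraries whose strands disagreed most.

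Of the remodelling genes, Smarca5 (gene 93762, chr8:80699943-80739459, minus strand), which encodes the ISWI ATPase SNF2H, read 3.08, 3.41, 3.25, 3.84 and 1.08% in Control and 3.46, 2.62, 2.33 and 2.21% in Susceptible. Control 8 was again the low library, and the groups overlapped. Baz1b (gene 22385, chr5:135187323-135246131, plus strand), encoding the Williams syndrome transcription factor that partners SNF2H, had means of 1.34 ± 0.483% and 1.33 ± 0.295%, a difference of -0.0084 points. The range was 0.738 to 2.02% in Control and 1.04 to 1.70% in Susceptible.

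Baz1a (gene 217578, chr12:54892989-55014371), which encodes ACF1, another partner of SNF2H, has no strand in the table, and its end with more CpGs stood in for the start. That window held 19 CpGs and read 94.3, 93.8, 96.4, 87.7 and 95.4% in Control and 93.0, 93.7, 89.7 and 88.3% in Susceptible, a difference of -2.35 points with an unadjusted p of 0.248. It was -3.81 points without Control 5, -1.39 points without Susceptible 7 and, with the other sign, 0.122 points with 20 calls required per cytosine. The only tested tiles of Baz1a under 20% lay at chr12:54984001-54987000, the middle one 28870 bp inside the gene's bounds. That tile, chr12:54985001-54986000, held 141 CpGs and read 0.563 to 1.69% in Control and 0.745 to 1.73% in Susceptible. The window used at Baz1a therefore does not have the low methylation that marked the other 9 starts, while this internal stretch does.

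The low region around each start differed in length from gene to gene. A stretch was read outward from the nearest CpG under 20% (within 500 bp of the start) to the last such CpG before 3 in a row reached 50%, using CpGs listed in at least 5 libraries. Of the 15417 protein-coding genes of known strand with a tested start, 11205 had such a stretch, with a median of 1482 bp (interquartile range 1044 to 2118 bp). Setdb1 had the shortest of the 9 measured members, 524 bp (percentile 6.77 of those genes). Kdm1a had 1430 bp, Suv39h2 1597 bp, Ehmt1 1791 bp, Smarca5 2313 bp, Ezh2 2478 bp, Ehmt2 2645 bp and Baz1b 3198 bp. Kmt2a had the longest, 6380 bp (percentile 98.1), reaching 2355 bp before the start and 4024 bp into the gene and holding 221 CpGs, 203 of them under 20%. Its inner end was at intermediate levels. Bins of 500 bp centred 3750 and 4250 bp into the gene read 37.5 and 49.8% in Control and 58.0 and 58.05% in Susceptible. The plot of methylation against distance shows the stretches as basins, with methylated DNA on either side.

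**Figure D2:**
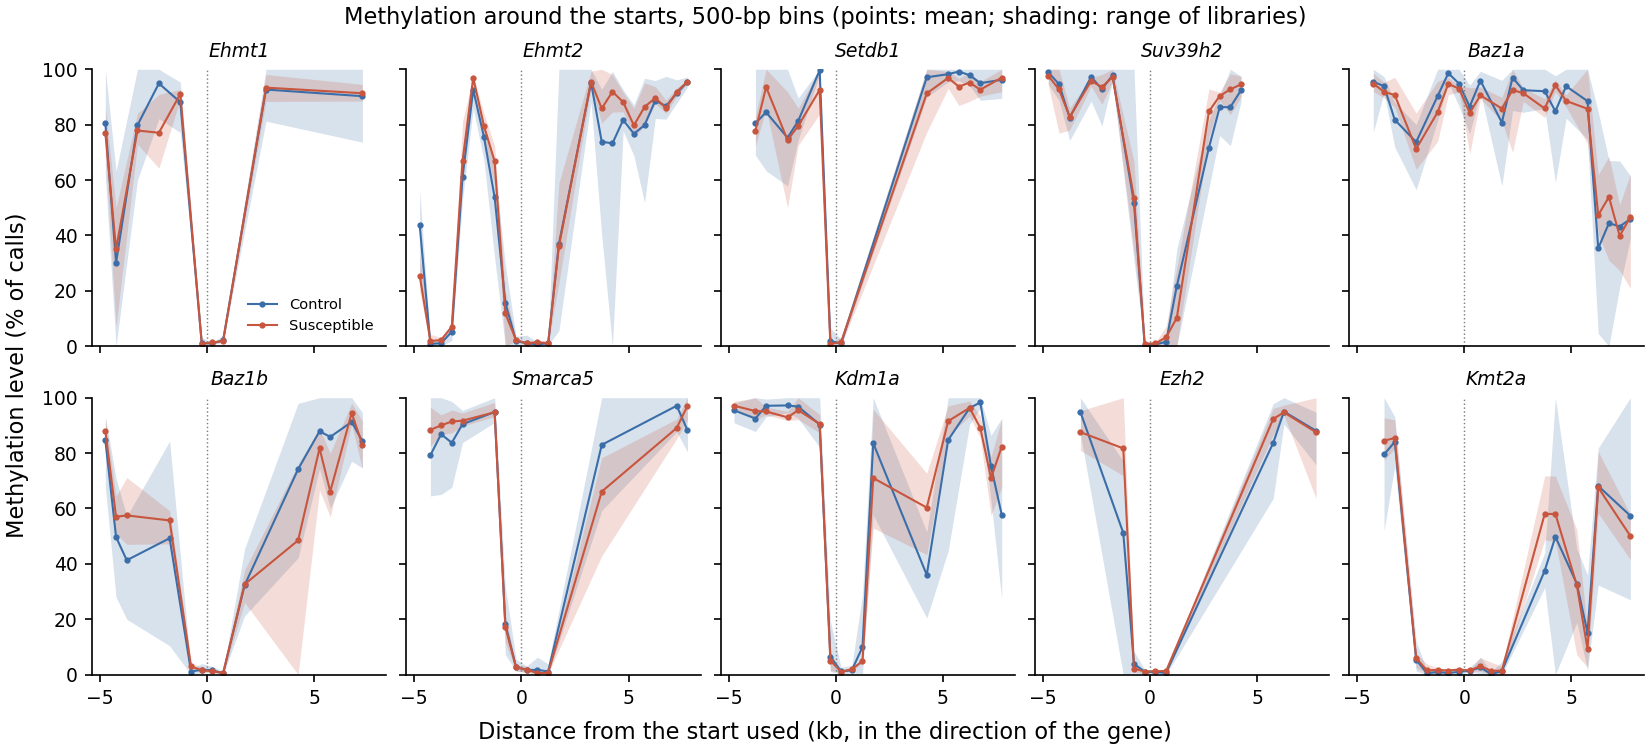
Mean methylation level (percent of calls) of the Control and Susceptible libraries in bins of 500 bp against distance from the start used (kb, positive into the gene), with shading from the lowest to the highest library of each group; bins with under 10 calls in any library are left out and straight lines join the bins on either side. The 9 genes other than Baz1a have a basin of low methylation at the start, widest at Kmt2a, and the shading of the 2 groups overlaps in most bins; Baz1a stays methylated through the start used.

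Gene bodies, counted from 1000 bp after the start to the far end, were methylated in both groups at all 10 genes, and no group difference passed the threshold. The levels over 9 libraries ran from 69.5% at Baz1a to 92.0% at Setdb1, beside a median of 85.4% over the 30187 bodies tested. No member and no other tested body passed an adjusted p under 0.05 (0%), and the members' adjusted p was 0.9999 throughout. No member reached an unadjusted p under 0.05, against 3.83% of all bodies, and no member's groups were free of overlap, against 1.36%. With the first 1000 bp kept in the body, 2 members did, Baz1b at -4.34 points (unadjusted p of 0.00835) and Kmt2a at 2.74 points (0.0496), both with an adjusted p of 0.9978, beside 4.57% of all bodies in that setting. Susceptible read higher at 7 of the 10 bodies, with a median difference of 0.760 points, beside -0.124 over all bodies, of which 46.2% read higher.

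Bodies can run through unmethylated stretches, and libraries list different CpGs of them. With every tile of 1000 bp under 20% (libraries pooled) left out of the bodies, a choice made after the values were seen, the 10 levels ran from 78.9% at Kmt2a to 92.1% at Setdb1. Ehmt2 was then the 1 member whose groups did not overlap, with a difference of 1.99 points, an unadjusted p of 0.0276 and an adjusted p of 1.0. In that setting 1.27% of all bodies had groups free of overlap and 3.62% an unadjusted p under 0.05. The differences at Baz1a and Smarca5 changed sign, as given for each gene.

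**Figure D3:**
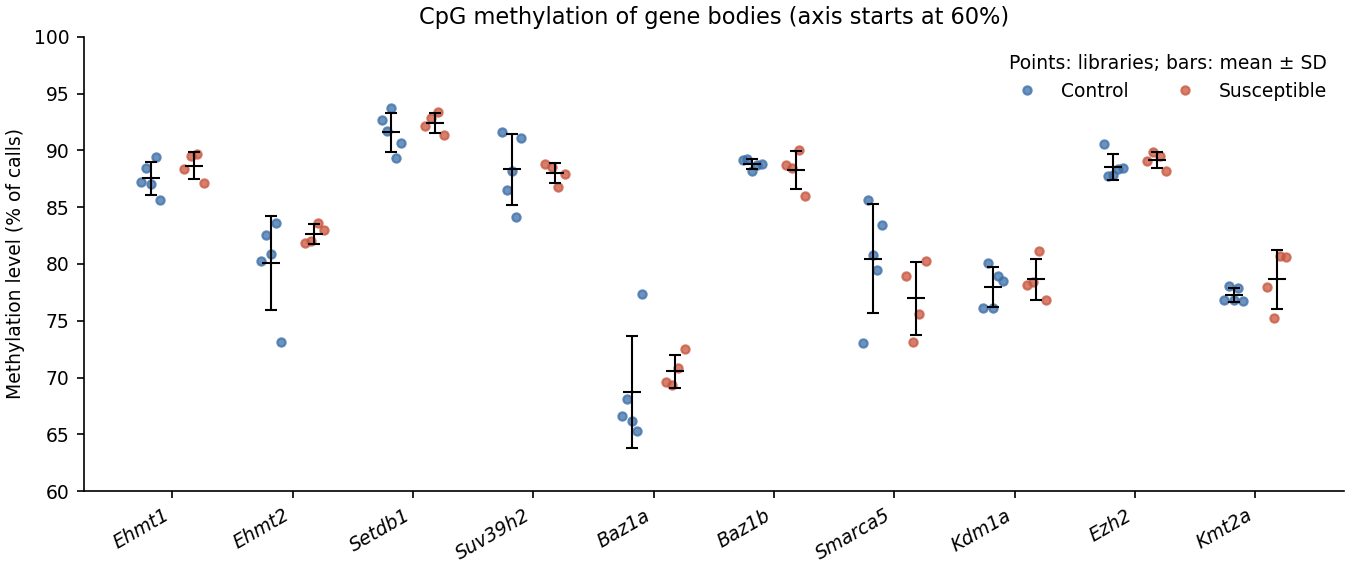
Methylation level of each gene body in percent of calls (axis from 60 to 100%) for the 5 Control and 4 Susceptible libraries (points), with group mean and SD (bars). The groups overlap at all 10 genes; the highest Control library lies well above the others at Baz1a (77.4%, Control 8), and the lowest well below them at Ehmt2 (73.1%, Control 8).

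Among the H3K9 writers, the Ehmt1 body read 87.2, 88.5, 87.1, 89.4 and 85.6% in Control and 88.3, 89.5, 89.7 and 87.1% in Susceptible, a difference of 1.08 points that was smaller than either group's SD. It was 0.594 points without Control 8 and 1.597 points without Susceptible 7 (unadjusted p of 0.0362, beside 5.80% of all bodies under 0.05 without that library). With the first 1000 bp kept in the body it had the other sign, -0.838 points. Ehmt2 read 80.3, 82.5, 80.9, 83.6 and 73.1% in Control and 81.8, 82.0, 83.7 and 83.0% in Susceptible. Its difference of 2.52 points leaned on Control 8 and was 0.779 points without that library. It turned to -0.213 points with the first 1000 bp kept in the body. The Setdb1 means were 91.6 ± 1.70% and 92.4 ± 0.888%, and those of Suv39h2 were 88.3 ± 3.14% and 88.0 ± 0.889%.

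The Ezh2 body read 88.6 ± 1.14% in Control and 89.2 ± 0.702% in Susceptible, and the Kdm1a body 78.0 ± 1.78% and 78.6 ± 1.80%. At Kmt2a the Control libraries were close together, at 76.8, 78.1, 76.8, 77.9 and 76.8%, and the Susceptible ones spread around them, at 78.0, 75.2, 80.7 and 80.7%. The difference of 1.39 points had an unadjusted p of 0.193. It was 2.52 points without Susceptible 3 (unadjusted p of 0.00841, adjusted p of 0.9986), 0.693 points without Susceptible 6 (unadjusted p of 0.486) and 0.722 points without Susceptible 7 (0.406). Over Control 2 and 3 and Susceptible 2 and 3 alone, with the number as a block, it was -0.837 points.

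The Smarca5 body showed the largest difference among the 10, -3.51 points, with 73.0, 85.6, 80.8, 79.5 and 83.4% in Control and 78.9, 73.1, 75.6 and 80.2% in Susceptible. The lowest library of all 9 was nonetheless Control 2, and the unadjusted p was 0.166. Without Control 2 the difference was -5.38 points, with an unadjusted p of 0.0239 and an adjusted p of 0.9992, and without Control 3 or Susceptible 3 it was -2.23 points (unadjusted p of 0.397 and 0.342). With tiles under 20% left out, the body read 89.6% in place of 78.9%, and the difference was 0.124 points (unadjusted p of 0.899). It was -5.34 points over CpGs that all 9 libraries list (unadjusted p of 0.249) and -8.84 points with 20 calls required per cytosine (0.0573). The Baz1b body read 88.8 ± 0.414% and 88.3 ± 1.69%.

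The Baz1a body, counted from the stand-in start, takes in the unmethylated internal stretch given above. It read 69.5% over the 9 libraries, the lowest of the set, and 90.0% with tiles under 20% left out. The Control libraries read 66.6, 68.2, 66.2, 65.3 and 77.4%, and the Susceptible ones 69.6, 69.3, 70.8 and 72.5%. Control 8 was the highest of all 9, while the other 4 Control libraries were below every Susceptible one. The difference was 1.84 points over all libraries (unadjusted p of 0.375) and 4.01 points without Control 8 (unadjusted p of 0.000940, adjusted p of 1.0), but 1.20 points without Control 4, 0.990 points without Control 5 and 1.19 points without Susceptible 7 (unadjusted p of 0.615, 0.613 and 0.559). When restricted to CpGs that all 9 libraries list, it was 3.41 points, with an unadjusted p of 0.0120 and an adjusted p of 0.9981. With tiles under 20% left out it was -0.617 points (unadjusted p of 0.105), with Susceptible the lower group.

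Tiles of 1000 bp from 5000 bp before the start to the end of each gene gave a finer view, and again no tile of these genes passed the threshold. Of 668 such tiles, 342 met the minimum for a test, 3 CpGs and 20 calls per library. None was called, as was true of all 1041809 tiles tested (0%). An unadjusted p under 0.05 was reached by 18 of the 342 (5.26%), 9 higher and 9 lower in Susceptible, against 4.38% of all tiles. Groups were free of overlap in 6 of the 342 (1.75%), against 1.56% of all tiles. The median difference was 0.0843 points beside -0.181 over all tiles, and single differences ran from -18.5 to 24.3 points. By gene, the share of tested tiles under that unadjusted p was 0 of 17 at Setdb1, 0 of 15 at Ezh2, 2 of 61 at Ehmt1, 2 of 21 at Ehmt2, 1 of 13 at Suv39h2, 2 of 73 at Baz1a, 1 of 34 at Baz1b, 1 of 9 at Smarca5, 2 of 28 at Kdm1a and 7 of 71 at Kmt2a. Of the 7 at Kmt2a, 3 read higher and 4 lower in Susceptible, and the differences of all its tested tiles ran from -18.5 to 19.6 points.

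The direction of the differences was also read by the level of the tile. Among the 74 member tiles with a mean of 20 to 80%, 49 (66.2%) read higher in Susceptible, with a median difference of 3.73 points, while 53.4% of the 220237 such tiles in the genome did, with a median of 0.530 points. Kmt2a supplied 34 of the 74, Ehmt1 11 and Kdm1a 10. Among the 242 member tiles over 80%, 109 (45.0%) read higher in Susceptible, near the 45.7% of all such tiles. Neighbouring tiles of a gene share their libraries and are not independent, and this split by level was looked at after the values were known.

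**Figure D4:**
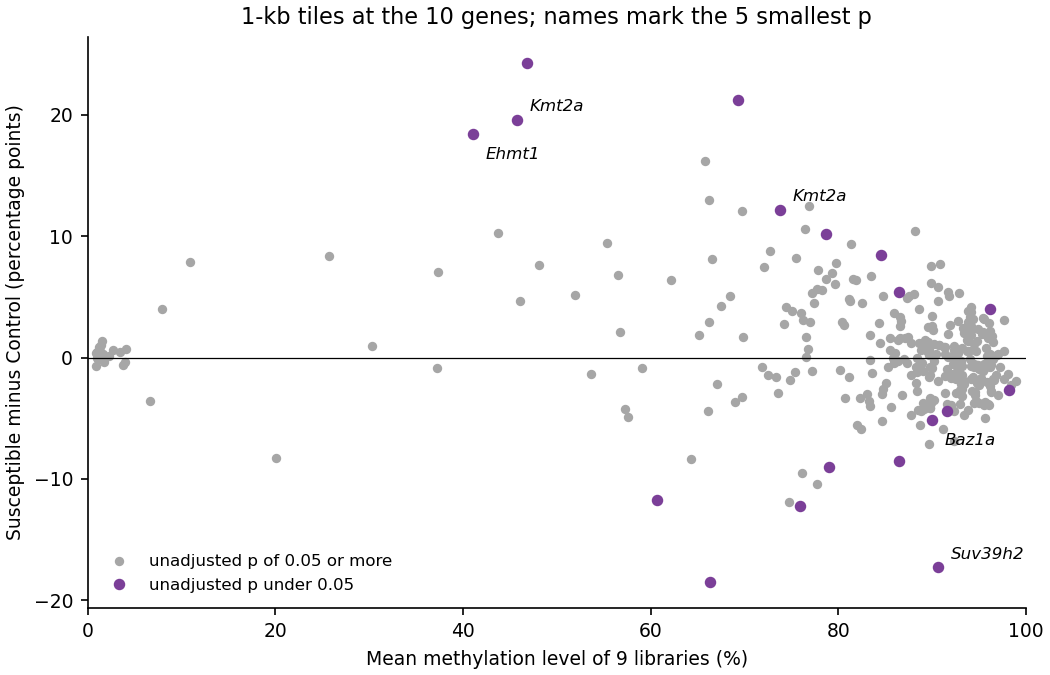
Susceptible minus Control difference in methylation (percentage points) of each of the 342 tested tiles against its mean level over 9 libraries (%), with the 18 tiles of unadjusted p under 0.05 in purple and the 5 of smallest p named by gene. Differences run from -18.5 to 24.3 points and are widest between the ends of the scale; none passed the adjusted threshold.

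The 5 tiles of smallest p were taken as the ones to describe, and each had an adjusted p of 0.9967. The first, chr9:44877001-44878000 in Kmt2a, spans the inner edge of the long low stretch, and its middle lies 3788 bp into the gene. The Control libraries read 43.0, 42.0, 41.5, 18.8 and 39.9%, and the Susceptible ones 49.0, 48.5, 60.1 and 69.0%. Every Susceptible library was above every Control one, and the difference was 19.6 points (37.0 ± 10.3% and 56.7 ± 9.82%, 213 to 476 calls per library) with an unadjusted p of 0.00273. Control 5 was the lowest, and without it the difference was 15.1 points. Of its 19 CpGs only 3 were listed in all 9 libraries. All 3 had a higher mean in Susceptible, the groups overlapped at each, and together they differed by 17.3 points with an unadjusted p of 0.0661.

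The second, chr9:44825001-44826000, lies deep in Kmt2a, 55788 bp from the start. It read 77.2, 78.2, 70.5, 49.8 and 66.5% in Control and 85.5, 71.9, 85.3 and 79.7% in Susceptible. Of its 13 CpGs only 2 were listed in all 9 libraries, so the libraries were read over partly different CpGs. The groups overlapped, and the difference of 12.2 points was 7.53 points without Control 5 and 5.33 points without Control 5 and Control 8. The third, chr2:24850001-24851000 in Ehmt1, was the lowest tested tile of that gene outside the start window. It held 5 CpGs, only 2 of them listed in all 9 libraries, and read 37.1, 29.4, 36.4 and 11.8% in Control 3, 4, 5 and 8. The Susceptible libraries read 50.3, 42.9, 68.2 and 44.0%, with Control 2 inside the Susceptible range. The difference was 18.4 points. Control 8 and Susceptible 6 were its extremes, and the difference was 13.1 points without the former and 12.8 points without the latter.

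The other 2 tiles read lower in Susceptible. At chr2:3459001-3460000, near the far end of Suv39h2 and also within Dclre1c, Control 2, 3 and 4 read 98.5, 94.3 and 98.7%, and every call was methylated in Control 5 and Control 8. The Susceptible libraries read 86.6, 93.6, 91.8 and 52.2%. The groups did not overlap, and the difference of -17.3 points was -7.64 points without Susceptible 7. None of the 9 CpGs of this tile was listed in all 9 libraries, so the libraries were read over different CpGs (46 to 159 calls per library). At chr12:54999001-55000000 in Baz1a the values were 93.8, 86.8, 93.3, 93.6 and 94.0% in Control and 89.2, 90.8, 84.9 and 83.7% in Susceptible. The groups overlapped through Control 3 alone, and the difference was -5.15 points with an unadjusted p of 0.0224. With 20 calls required per cytosine it was -3.29 points (unadjusted p of 0.103). Of the 15 CpGs of this tile, 6 were listed in all 9 libraries.

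**Figure D5:**
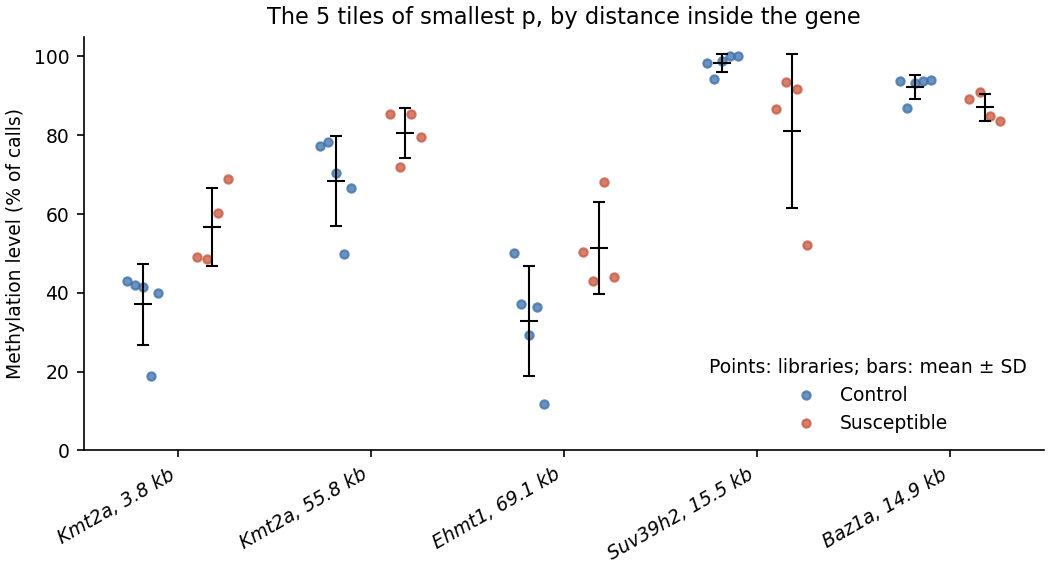
Methylation level (percent of calls) of the 5 tiles of smallest p in each of the 5 Control and 4 Susceptible libraries (points), with group mean and SD (bars); labels give the gene and the distance of the tile's middle from the start used. The groups are separate at the Kmt2a tile 3.8 kb inside the gene and at the Suv39h2 tile, and overlap at the other 3.

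Outside the start windows, the lowest tested tile of each gene showed where else methylation was reduced. Kmt2a read 1.44% at chr9:44879001-44880000, inside its long stretch, and Ehmt2 read 1.48% at chr17:34894001-34895000, a tile upstream of the gene that holds a bound of Zbtb12. Baz1a read 1.24% at the internal tile given above. Intermediate levels were found at Ehmt1 (41.1%, given above), at Kdm1a (46.8% at chr4:136598001-136599000, 4222 bp into the gene) and at Baz1b (48.1% at chr5:135183001-135184000, upstream). At Setdb1, Ezh2, Suv39h2 and Smarca5 the lowest tested tiles still read 75.3, 80.2, 85.9 and 86.5%. In that order, only 17 of 40, 15 of 69, 13 of 25 and 9 of 44 tiles of these genes could be tested.

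The wider pathway was described from a list of 54 genes for partners and relatives of the members, of which 53 starts and all 54 bodies could be tested. As at the members, most starts were low, with 44 of the 53 under 10%, beside 52.4% of all tested starts of protein-coding genes. They ran from 0.916% at Jarid2, a Polycomb cofactor, to 89.4% at Dpy30, a core subunit of the H3K4 methyltransferase complexes. For some of these genes, among them Ash2l (88.9%), Kdm6b and Nsd1, the CpG-richer gene end stood in for the start. No start or body passed the threshold, beside 0% of all starts and bodies. At an unadjusted p under 0.05, 2 starts read higher and 1 lower in Susceptible, and likewise 2 bodies higher and 1 lower. Over all genes 4.77% of starts and 3.83% of bodies did so, so that 3 of 53 starts and 3 of 54 bodies are near the background. Groups were free of overlap at 3 of the 53 starts and 1 of the 54 bodies, against 1.85% of all starts and 1.36% of all bodies. The median difference was 0.0222 points over the starts and 0.0263 points over the bodies.

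Among the Polycomb genes, the start of Phf19, a chromatin reader of that complex, read 12.8, 10.4, 14.8, 21.0 and 10.6% in Control and 10.3, 10.02, 7.34 and 6.67% in Susceptible. The groups did not overlap, though Control 3 and Susceptible 2 were next to each other, and the difference of -5.33 points had an unadjusted p of 0.0137. Within 500 bp of the start it was -0.923 points (unadjusted p of 0.148). Among the demethylases, the start of Kdm1b, the relative of Kdm1a, read 1.37 ± 0.551% in Control and 2.44 ± 0.387% in Susceptible, a difference of 1.07 points that was 0.0710 points within 2000 bp. Smarca1, the X-linked ISWI ATPase next of kin to Smarca5, read 0.270 ± 0.384% at its start in Control, with no library above 0.820%, and 4.14, 2.83, 1.52 and 2.22% in Susceptible. Those levels rest on 237 to 507 calls per library, and the difference of 2.41 points was 0.761 points within 2000 bp. In gene bodies, Dpy30 read 57.9, 56.0, 58.1, 58.3 and 61.6% in Control and 48.2, 52.4, 54.2 and 56.5% in Susceptible. With tiles under 20% left out, that body read 92.7% in place of 55.9%, and the difference of -5.55 points became -0.308 points (unadjusted p of 0.775). Kdm3b and Kdm5a, demethylases of H3K9 and H3K4, read 81.9 and 83.4% in Control and 83.6 and 85.2% in Susceptible. The Kdm3b difference of 1.68 points was 0.346 points over CpGs that all 9 libraries list, and the Kdm5a difference of 1.80 points was 0.796 points with tiles under 20% left out. With an adjusted p of at least 0.971 in the model of all 9 libraries, none of these 6 differences passed the threshold. With the log of a library's listed calls as a covariate, the unadjusted p of the 6 ran from 0.103 to 0.423. Every Susceptible library listed more calls than every Control one, so this covariate overlaps with the group and cannot separate depth from it. With limma on logit methylation, the starts had an unadjusted p of 0.0321 (Phf19), 0.0288 (Kdm1b) and 0.000358 (Smarca1), each with an adjusted p of 0.947.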

How the data were processed

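The 9 whole-genome bisulfite libraries, 5 Control and 4 Susceptible, were prepared with the Pico Methyl-seq kit per the labels' protocols. Bismark, Bowtie, Picard and build mm10 are named in the submitters' processing notes without versions. Per the file headers, the deposited tables give, per cytosine of a CpG, the count of calls and the percent read as C and as T. The authors' minimum was 10 calls at every listed cytosine, as the deposited counts show, so CpGs below it are missing and differ between libraries. Count times percent of C gave whole methylated calls within 0.0001 calls per call, and both strands of a CpG were added.

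Gene bounds came from a RefSeq table (GRCm38.p6), and strand and start from its promoter table for 26794 of 34328 genes; for the other 7534, Baz1a among them, the CpG-richer bound stood in for the start. Exons are not in these tables. Summed methylated and unmethylated calls were fitted per window by a quasi-binomial logistic model on all 9 libraries (NumPy 2.4.6, SciPy 1.17.1), with dispersions moderated by the formulas of limma 3.58.1, kept at 1 or more, and Benjamini-Hochberg adjustment genome-wide over all windows that met a minimum of 3 CpGs and 20 calls per library. The code was tested on simulated data. Members were given by name. Named tiles were, among those tested, the 5 of smallest p and the lowest outside each start window. Named pathway genes were those with an unadjusted p under 0.05 and the extremes of start level. The members, the lists and these rules were chosen with earlier results of these data known. Wilson 95% intervals were 0.404 to 5.24 points wide at the low starts and 0.817 to 3.81 points in bodies, and cover counting error only. Alternatives changed the window, the CpGs and minimums used, the model and the libraries, and 1, which leaves tiles under 20% out of gene bodies, was added after the data were seen. The cytosines outside the autosomes and X, 0.137 to 0.206% of each library, were left out, as were 4 and 8 repeated entries in Control 5 and Control 8.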

Additional observations from a re-analysis of the deposited data

Results flagged for a closer look

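Among 80 groups of values tested, 9 held a library that stood apart from the rest of its group by Dixon's criterion at the 95% level, and chance alone gives about 1 in 20. At the starts, Susceptible 2 was high at Ehmt2 (2.83%, the next library 1.95%) and at Suv39h2 (3.14%, next 2.01%), and Control 8 was low at Smarca5 (1.08%, next 3.08%).

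In gene bodies, Control 8 was high at Baz1a (77.4%, next 68.2%) and Control 2 at Ezh2 (90.5%, next 88.4%). In the Suv39h2 tile near the end of the gene, Control 3 was low (94.3%, next 98.5%) and so was Susceptible 7 (52.2%, next 86.6%). In the Baz1a tile 14870 bp inside the gene, Control 3 was low (86.8%, next 93.3%), and it is the library through which the groups overlap. In the Kmt2a tile 3788 bp inside the gene, Control 5 was low (18.8%, next 39.9%). The libraries that stood apart were Control 8, Control 3 and Susceptible 2 in 2 groups each and Control 2, Control 5 and Susceptible 7 in 1 each.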

How the results depend on the processing

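No member was called under any alternative run. Over all genes and tiles the count of calls was 0 under each of them except tiles without Control replicate 4, with 1 call outside the members, so that the range with 1 library left out was 0.0 to 1.0. The alternatives in the model, and dropping the minimum of CpGs and calls per window, leave a difference as it is and bear on its p only. Of 476 differences recomputed with other libraries, windows or CpGs, 429 kept their sign and 47 did not, and no adjusted p was under 0.823. They recompute up to 31 results per alternative: the members' starts and bodies, the tiles of smallest p and the named pathway differences. The tiles and pathway differences were picked from these data for a small p, and runs without 1 library share the others. The count is therefore no independent check. The turned differences are given in percentage points, and their causes were not tested. Without Control 5 and Control 8 they became -0.0535 (Ehmt2 start), 0.293 (Baz1b start) and -0.241 (Setdb1 body). With windows of 500 bp on each side they were -0.607 (Setdb1), 0.0537 (Smarca5) and -0.396 (Kdm1a), and with 2000 bp -1.93 (Ehmt1), -1.22 (Ehmt2), -2.86 (Setdb1) and -0.690 (Kdm1a). Over CpGs shared by all 9 libraries the starts gave -0.177 (Ehmt1), -0.568 (Setdb1), -0.217 (Kdm1a) and -0.116 (Kmt2a), and the Suv39h2 body 1.81. With 20 calls required per cytosine they gave -0.188 (Ehmt1), 0.122 (Baz1a) and -0.0177 (Kdm1a), and the bodies 3.04 (Suv39h2) and -0.256 (Kdm1a). Keeping the first 1000 bp in the body gave -0.838 (Ehmt1), -0.213 (Ehmt2), -0.811 (Setdb1), 2.73 (Suv39h2), -1.13 (Kdm1a) and -0.0521 (Kdm5a). With tiles under 20% left out of the body, an alternative added after the data were seen, they were -0.617 (Baz1a) and 0.124 (Smarca5). Leaving out 1 library at a time moved the Ehmt1 start from -0.151 to 0.171, Ehmt2 from -0.376 to 0.450, Baz1b from -0.160 to 0.162, Kdm1a from -0.0761 to 1.28, Smarca5 from -0.739 to -0.0490 and Ezh2 from 0.0863 to 0.292, and the bodies of Suv39h2 from -1.35 to 0.521, Baz1b from -1.09 to 0.259, Kdm1a from -0.142 to 1.30, Setdb1 from 0.274 to 1.36 and Ezh2 from 0.373 to 1.09. The member tiles at an unadjusted p under 0.05, 18 of 342, numbered 29 of 567 with no minimum (5.11%, beside 4.69% of all tiles). They were 24 of 348 without Control 3 (6.90% beside 5.31%), 22 of 386 without Control 5 (5.70% beside 5.22%) and 21 of 356 without Control 8 (5.90% beside 4.47%). They were 9 of 342 without Susceptible 6 (2.63% beside 2.84%), 3 of 116 with 20 calls per cytosine (2.59% beside 4.71%) and 1 of 212 over shared CpGs (0.472% beside 4.60%).

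Control and Susceptible share the numbers 2 and 3 only, and libraries of the same number did not deviate together (Pearson r of deviations 0.0273 and -0.0336 across 30937 starts), so the number was not taken as a pairing. With it as a replicate block over those 4 libraries, the differences of the 5 tiles of smallest p were 6.24 and 1.05 points (Kmt2a), 3.09 (Ehmt1), -6.31 (Suv39h2) and -0.284 (Baz1a), the Phf19 start gave -1.44, and signs turned at the Ehmt2 start (-0.112), the Baz1b start (0.639) and the Kmt2a body (-0.837).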
